A study of Mus musculus with 6 samples.

Results

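The potassium channel genes described here are the 92 rows of the deposited table whose symbol is Kcn followed by letters and a number, out of 24980 rows in all. The 92 genes were chosen by symbol alone, the expressed ones among them were selected on their TPM in all 6 libraries, and Kcne4 was put first in view of its KO against WT difference. They encode pore-forming subunits and the accessory subunits that bind them. The values come from RNA-seq of satellite cells, the stem cells of skeletal muscle, sorted by flow cytometry from hindlimb muscles of adult C57BL6/J mice. Mice labelled scERα WT (3 libraries) were compared with mice labelled scERα KO (3 libraries), whose Esr1 gene, which encodes estrogen receptor α, had been targeted by Cre in the satellite cells. Mice of both groups had received tamoxifen, 10 mg in total, so the WT libraries are also from tamoxifen-treated animals. The Cre driver, the targeted allele, the sex and the exact age are not given in the sources used here, and nothing in the labels ties a library to 1 mouse, so p-values here reflect spread among libraries that may be technical.

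Potassium channels let potassium leave the cell and so set the membrane potential. Most are tetramers of pore subunits that open with voltage (the Kv families), with calcium (BK, SK and IK) or with sodium, while the inward rectifiers and the tandem-pore-domain channels carry background currents. The Kcne proteins have a single transmembrane segment and no pore, and they change the gating of Kv pores. Kcne4 is best known as an inhibitor of the Kcnq1, Kcna1 and Kcna3 channels in expression systems. In human myoblasts a hyperpolarisation carried by potassium channels precedes fusion.

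Esr1 lay at 6.94 to 7.53 TPM in WT and at 2.92 to 3.87 TPM in KO, so all 6 libraries had the targeted gene on the side of their label. TPM is a transcript abundance scaled for transcript length and for the library total. It does not retain read depth, so counting error cannot be stated for any value. The listed TPM summed to between 295306 and 334382 per library. All 11 satellite cell markers passed the expression filter described below, with Pax7 at 17.9 to 32.8 TPM. Markers of other cells were also present, some of them at higher levels than Pax7. The summed level of 8 fibro-adipogenic progenitor markers was 134 to 239 TPM in WT and 166 to 192 TPM in KO, that of 8 mural cell markers 40.7 to 41.7 and 40.9 to 63.4 TPM, and that of 8 Schwann cell markers 6.89 to 9.04 and 8.16 to 21.2 TPM. The 5 erythroid markers summed to 18.2 to 215 TPM in WT and 38.4 to 437 TPM in KO. None of the markers was at 0 in all 6 libraries, although Pdgfra did not exceed 0.31 TPM, Sox10 0.42 TPM and Ptprc 0.29 TPM. The highest mural cell markers were Notch3 (14.18 to 23.16 TPM) and Acta2 (10.73 to 19.35 TPM), while Pdgfrb did not exceed 0.81 TPM and Cspg4 0.57 TPM. Among the fibro-adipogenic progenitor markers, Gsn (60.22 to 77.04 TPM), Col3a1 (21.8 to 116.57 TPM) and Dpt (23.43 to 50.86 TPM) were highest. Ly6a did not exceed 2.24 TPM and Lum 1.01 TPM.

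Where the upstream sequence helps to place a gene, it is shown for the 3 expressed channel genes with the largest differences between the groups, Kcne4, Kcnn3 and Kcnk1. The stretches lie before the RefSeq start (GRCm38.p6, plus strand in each case) and outside annotated exons. They were searched for GGTCA, the core of the estrogen response element, on both strands, and matches are in capitals.
Kcne4, chr1:78816661-78816757: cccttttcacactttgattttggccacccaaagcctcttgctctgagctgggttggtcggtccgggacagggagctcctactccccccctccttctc
Kcnn3, chr3:89519914-89520163: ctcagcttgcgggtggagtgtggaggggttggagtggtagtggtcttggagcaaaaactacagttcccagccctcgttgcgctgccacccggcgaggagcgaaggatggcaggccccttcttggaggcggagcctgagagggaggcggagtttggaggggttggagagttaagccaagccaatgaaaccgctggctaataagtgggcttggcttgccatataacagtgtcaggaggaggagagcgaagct
Kcnk1, chr8:125994852-125995101: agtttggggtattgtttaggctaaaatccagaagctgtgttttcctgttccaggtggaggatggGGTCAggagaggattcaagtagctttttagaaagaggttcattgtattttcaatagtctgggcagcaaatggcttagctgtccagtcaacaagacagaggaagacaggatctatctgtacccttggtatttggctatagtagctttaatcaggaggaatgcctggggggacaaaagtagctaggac

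In the 250 bases before the start, GGTCA was found in 1 of 6 windows of expressed Kcn genes, that of Kcnk1. The share was 28.3% over 92 windows of 67 matched Kcn genes and 35.2% over all 32851 RefSeq windows of that length. The full element GGTCANNNTGACC was in 0 windows of Kcn genes and in 0.0639% of all windows. Such a match is a description of the letters and says nothing of receptor binding.

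Few potassium channel genes were expressed in these cells. A gene was called expressed where 3 or more of the 6 libraries, of either group, held at least 1 TPM, and 8 of 92 Kcn genes met this. Described here are 7 of them: Kcnn3, Kcne4, Kcnk5, Kcnma1, Kcnt2, Kcnk1 and Kcnk6. The 8 genes that passed are 8.70% of the 92, against 35.9% of all 24980 listed genes. Among voltage-gated sodium channel genes (Scn) 3 of 14 passed, and among voltage-gated calcium channel genes (Cacn) 2 of 22. Of the other 84 Kcn genes, none reached 1 TPM in any library, and 5 (Kcna10, Kcng1, Kcnk12, Kcnq3 and Kcnv1) were listed at 0 in all 6. The median Kcn gene had a mean of 0.0642 TPM. At the edge of the filter, the third-highest value was 1.35 TPM for Kcnt2 and 1.07 TPM for Kcnk6. Just outside were Kcnmb1, a BK β subunit, at 0.86 TPM, Kcnc1, a Kv3 pore, at 0.71 TPM and Kcnj16, an inward rectifier, at 0.61 TPM.

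**Figure D1:**
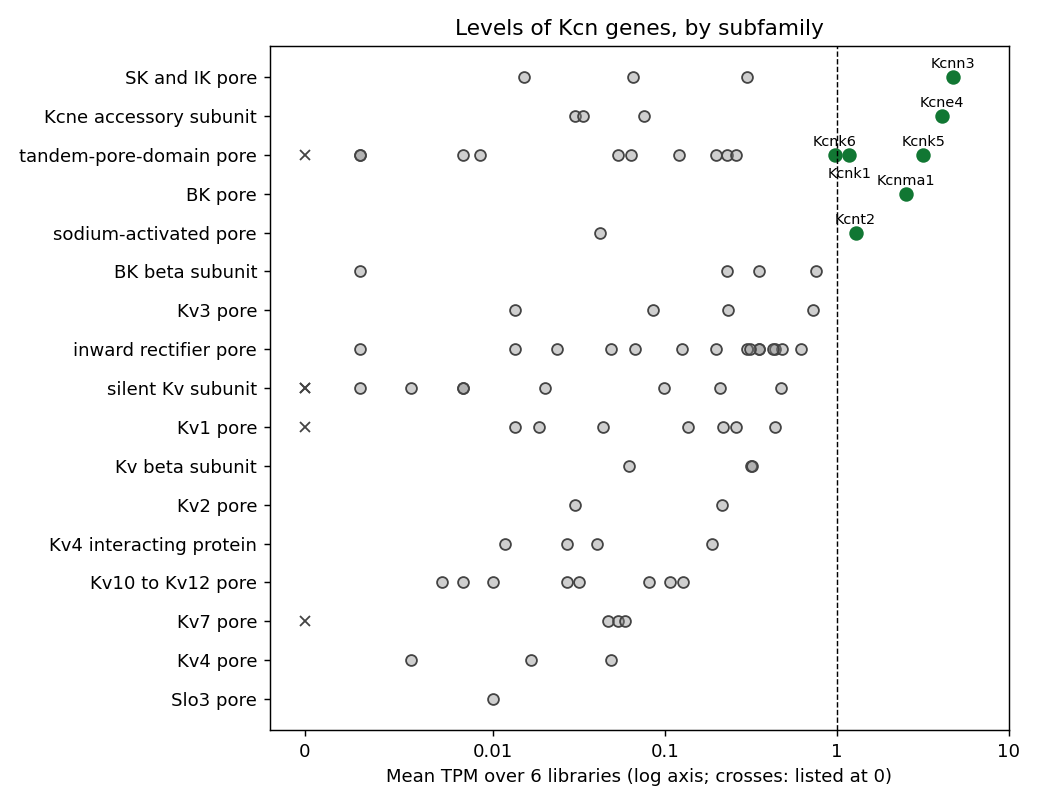
Mean TPM over the 6 libraries (log axis) of the Kcn genes reported, 1 row per subfamily; green points are the 7 expressed genes among them, crosses are genes listed at 0 and the dashed line marks 1 TPM. No inward rectifier, Kv1, Kv2, Kv3 or Kv4 pore gene is among the green points.

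The expressed genes were spread over the channel classes. The tandem-pore-domain family had 3 expressed genes of 14, and the BK pore, the SK and IK pores, the sodium-activated pores and the Kcne subunits had 1 each. The largest subfamily, the inward rectifiers, had 0 expressed of 15, with Kcnj16 the highest at a mean of 0.617 TPM. Kcnj2, the inward rectifier known from human myoblast fusion and named here after its values were seen, lay between 0.16 and 0.67 TPM. The Kv1 pores had 0 of 8, led by Kcna3 at a mean of 0.435 TPM.

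Kcne4 (chromosome 1, 78816758 to 78820028, plus strand, GRCm38) was the channel gene with the highest level in every WT library and held less in every KO library. It held 4.80, 6.49 and 6.91 TPM in WT libraries 1, 2 and 3 and 2.64, 2.05 and 1.42 TPM in KO libraries 1, 2 and 3. The groups did not overlap, and the gap of 2.16 TPM between the lowest WT and the highest KO value was wider than the range within WT (2.11 TPM) or KO (1.22 TPM). The WT mean was 6.07 ± 1.12 TPM and the KO mean 2.04 ± 0.610 TPM (SD, n = 3 each), so KO held 33.6% of the WT mean. On the log2(TPM + 1) scale, which understates changes of low genes, the difference was -1.23 (SE 0.19). Kcne4 was singled out with this difference known, so it is given as a description with no test. In bulk RNA, fewer cells expressing a gene and less RNA per cell cannot be told apart. Of 8 mural cell markers, 6 had a higher KO mean, while Abcc9 (1.39 TPM in WT and 0.940 TPM in KO) and Pdgfrb (0.647 and 0.623 TPM) had a lower one. The part of other cell types in the Kcne4 difference was not tested.

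The protein-coding genes on either side of Kcne4, chosen after its values were seen, were not lower in KO. Acsl3, a long-chain acyl-CoA synthetase 109015 bp to the left, had a log2 difference of 0.32 (SE 0.19) with a limma adjusted p of 0.586. Utp14b, 145246 bp to the left, had one of 0.40 (SE 0.19) with a limma adjusted p of 0.503. Adjusted p-values are Benjamini-Hochberg over all 8971 genes tested, here and elsewhere except in the closing section. There, each alternative was adjusted over the genes that it tested. Utp14b lies within the span of Acsl3 on the same strand, so their reads may be shared and they are not separate observations. All KO values of Utp14b lay above all its WT values, as in 13.5% of all genes tested. Scg2, 614641 bp to the right, was not expressed by the filter. Ap1s3, 786848 bp to the right, was tested, with a log2 difference of 0.04 (SE 0.17) and a limma adjusted p of 0.934.

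**Figure D2:**
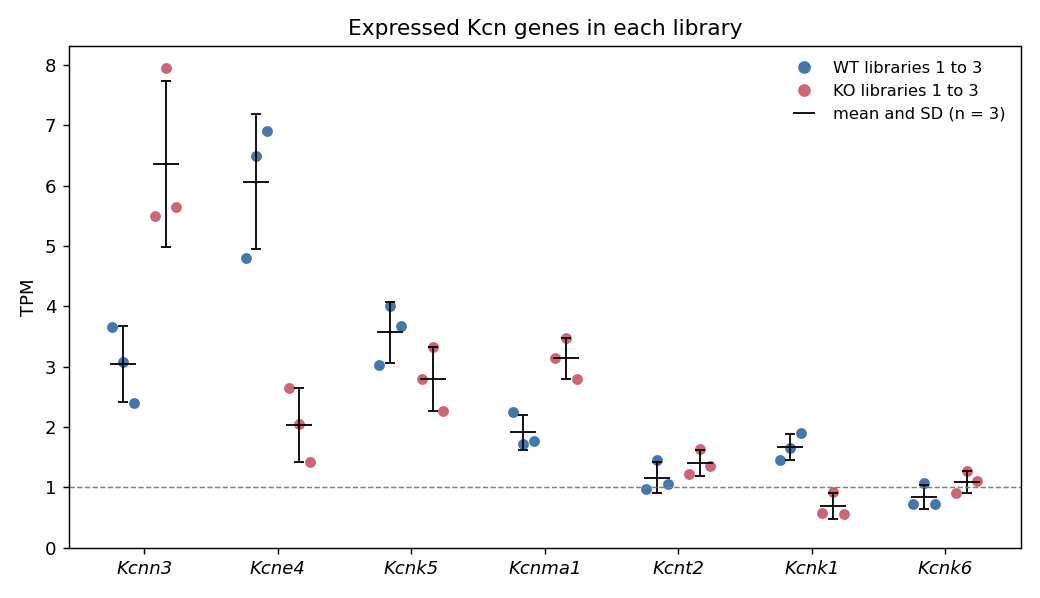
TPM of 7 expressed Kcn genes in each library (linear axis; blue WT, red KO; bars are the mean and SD, n = 3; dashed line at 1 TPM). Kcne4 and Kcnk1 have all KO points below all WT points, and Kcnn3 and Kcnma1 have all KO points above.

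The other Kcne genes were nearly absent. Kcne1, Kcne2 and Kcne3 together summed to 0.01 to 0.24 TPM in WT and 0.08 to 0.33 TPM in KO. Kcne3, which modulates Kcnq1 in epithelia, was at 0.15, 0.30 and 0 TPM in KO libraries 1, 2 and 3, and every WT library listed it at 0. Kcne4 thus held most of the family's signal in each of the 6 libraries.

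Of the pore genes taken as possible partners of Kcne4 and reported here, Kcnma1, described below, was expressed and 5 were not. Kcna3, the Kv1.3 pore, lay at 0.22 to 0.55 TPM in WT and 0.39 to 0.59 TPM in KO. Kcna1, the Kv1.1 pore, lay at 0.12 to 0.16 TPM in WT and at 0.12, 0.20 and 0.56 TPM in KO libraries 1, 2 and 3. KO library 3 also had the highest summed Schwann cell markers, 21.2 TPM, and their part in the Kcna1 value was not tested. Kcnq1 did not exceed 0.09 TPM, Kcnd3 0.05 TPM and Kcnd2 0.01 TPM. Kcnq1 overlaps the antisense Kcnq1ot1, at a mean of 5.77 TPM in WT and 6.64 TPM in KO, and no source used here says whether reads were assigned by strand.

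**Figure D3:**
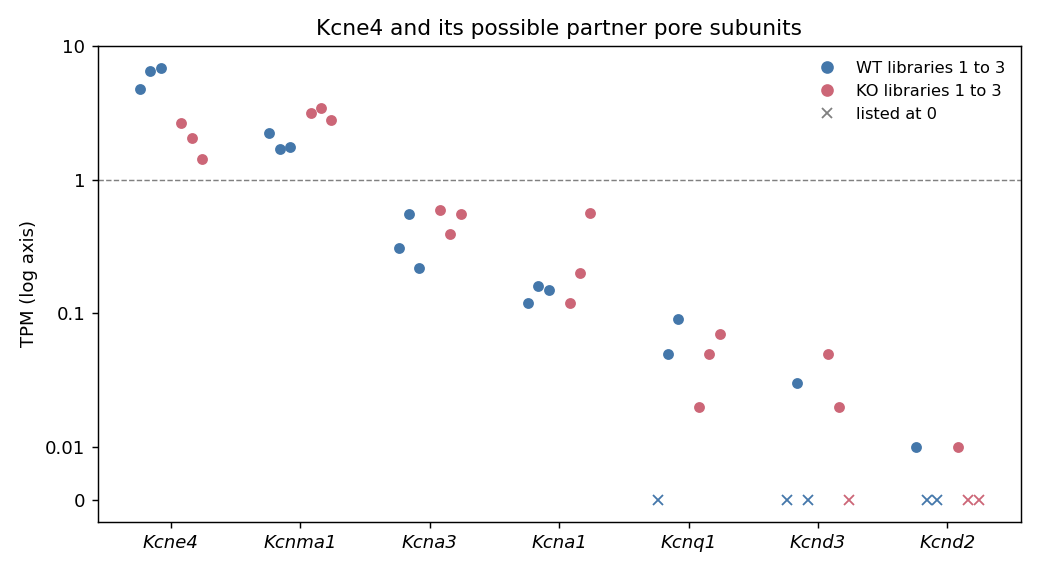
TPM (log axis, with 0 shown on a row of its own) of Kcne4 and 6 possible partner pore genes in each library, blue WT and red KO. Kcne4 and Kcnma1 lie above 1 TPM in all 6 libraries and the other 5 lie below it in all 6.

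Within a library, Kcne4 can be set beside Kcnma1. The WT libraries gave ratios of 2.13, 3.80 and 3.90 and the KO libraries ratios of 0.838, 0.591 and 0.509. The accessory subunit was thus above the BK pore gene in every WT library and below it in every KO library. Kcnma1 was itself higher in KO, so the ratio moves with both genes and adds no evidence to the Kcne4 values.

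Both expressed calcium-activated channel genes were higher in KO libraries. Kcnn3 (chromosome 3, 89520164 to 89675132, plus strand) encodes SK3, which opens through bound calmodulin when calcium rises. It held 3.65, 3.07 and 2.39 TPM in WT and 5.49, 7.94 and 5.64 TPM in KO. The groups did not overlap, and KO library 2 stood highest. The means were 3.04 ± 0.631 and 6.36 ± 1.37 TPM (SD, n = 3 each), a ratio of 2.09. The log2 difference was 0.86 (SE 0.18, 95% interval 0.46 to 1.27), and the limma adjusted p of 0.153 did not pass the threshold of 0.05. The summed fibro-adipogenic progenitor markers overlapped between the groups, and 1 of these 8 markers, Dpt, had all KO values above all WT values, while in Gsn they lay below.

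Kcnma1 (chromosome 14, 23289431 to 24014491, minus strand) encodes the BK pore, opened by voltage and calcium together. It held 2.25, 1.71 and 1.77 TPM in WT and 3.15, 3.47 and 2.79 TPM in KO. The groups did not overlap. The means were 1.91 ± 0.296 and 3.14 ± 0.340 TPM (SD, n = 3 each), a ratio of 1.64, and the log2 difference was 0.51 (SE 0.13, 95% interval 0.21 to 0.81) with a limma adjusted p of 0.217. The genes of its β subunits did not pass the filter: Kcnmb1 held 0.44 to 0.89 TPM in WT and 0.65 to 0.91 TPM in KO. Kcnn3 and Kcnma1 together summed to 4.95 ± 0.882 TPM in WT and 9.49 ± 1.66 TPM in KO (SD, n = 3 each). The other SK and IK genes lay low, with Kcnn1 at 0.32 to 0.55 TPM in WT and 0.11 to 0.33 TPM in KO.

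The tandem-pore-domain genes, whose channels carry background potassium current, differed among themselves. Kcnk1 (chromosome 8, 125995170 to 126030685, plus strand), encoding TWIK-1, held 1.46, 1.65 and 1.90 TPM in WT and 0.58, 0.93 and 0.56 TPM in KO. No KO library reached 1 TPM, so Kcnk1 passed the filter through the WT libraries alone and had to differ. Its KO mean was 41.3% of the WT mean, with a log2 difference of -0.66, given as a description. Kcnk5 (chromosome 14, 20140057 to 20181809, minus strand), the pH-sensitive TASK-2, held 3.02, 4.01 and 3.67 TPM in WT and 2.80, 3.32 and 2.27 TPM in KO. These groups overlapped, and the log2 difference of -0.27 had a 95% interval from -0.61 to 0.07 (limma adjusted p = 0.567). Kcnk6 (chromosome 7, 29221926 to 29232515, minus strand), encoding TWIK-2, held 0.73, 1.07 and 0.73 TPM in WT and 0.90, 1.27 and 1.10 TPM in KO. It too overlapped, at a log2 difference of 0.18 (95% interval -0.13 to 0.50).

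Kcnt2 (chromosome 1, 140246158 to 140612067, plus strand) encodes a sodium-activated pore. It held 0.97, 1.45 and 1.06 TPM in WT and 1.22, 1.64 and 1.35 TPM in KO, and the groups overlapped (log2 difference 0.16, 95% interval -0.16 to 0.47). Exons of Kcnt2, Kcnk1 and Kcnma1 overlap an annotated gene on the other strand, so their reads may be shared. The listed antisense genes at Kcnt2 and Kcnma1 had WT means of 0.463 and 0.0733 TPM.

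Over the 8 expressed genes, 0 passed the adjusted threshold by limma, against 0.0557% of the 8971 genes tested. At an unadjusted p under 0.05 there were 2 higher (Kcnn3 and Kcnma1) and 2 lower (Kcne4 and Kcnk1), where the shares of all genes tested were 7.89% higher and 2.66% lower. All KO values lay above all WT values in 3 genes (13.5% of all genes tested) and below in 2 (3.07%), against 16.6% of all genes tested in either direction. Kcne4 is among these counts and Kcnk1 passed the filter through WT only, so they are no support for a difference of the group. The median log2 difference was 0.17 for the 8 genes and 0.12 for all genes tested. Median-of-ratios scaling moved the median of all genes to 0.01 and that of the 8 genes to 0.09, with the sign of each of the 8 genes kept.

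**Figure D4:**
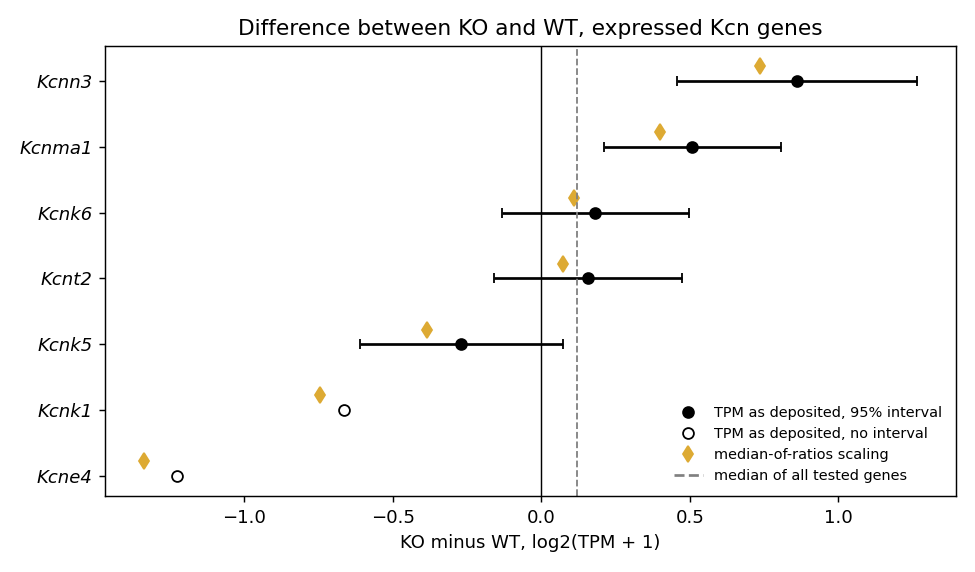
KO minus WT difference on the log2(TPM + 1) scale for 7 expressed Kcn genes; filled points with 95% intervals and open points use TPM as deposited, yellow diamonds are after median-of-ratios scaling and the dashed line is the median of all tested genes, 0.12. Kcne4, singled out for its difference, and Kcnk1, which passed the filter through WT alone, are open points with no interval. Of the other 5 intervals, those of Kcnma1 and Kcnn3 do not include 0.

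Among the 79 Kcn genes above 0 that did not pass the filter, the groups did not overlap in 2, against 7.46% of all such genes. Both are inward rectifiers and were named after their values were seen. Kcnj12 held 0.33 to 0.38 TPM in WT and 0.45 to 0.63 TPM in KO. Kcnj8, the pore of vascular KATP channels, held 0.26 to 0.57 TPM in WT and 0.16 to 0.25 TPM in KO, and its sulfonylurea receptor Abcc9 held 0.82 to 2.18 and 0.73 to 1.25 TPM.

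The summed potassium channel signal overlapped between the groups, while the shares of Kcne4, Kcnn3, Kcnma1 and all Kcnk genes in it did not. The 92 genes summed to 27.3, 34.4 and 30.3 TPM in WT and to 28.6, 35.2 and 28.3 TPM in KO, means of 30.7 ± 3.56 and 30.7 ± 3.91 TPM (SD, n = 3 each). Kcne4 made up 17.6% to 22.8% of this sum in WT and 5.01% to 9.23% in KO. Kcnn3 made up 7.89% to 13.4% in WT and 19.2% to 22.5% in KO. Kcne4 had the highest level of the 92 genes in all 3 WT libraries and Kcnn3 in all 3 KO libraries. Kcne4 was singled out for its difference, so its share and rank restate its values and add no evidence. Shares of the same sum are tied to each other, so those of Kcnn3, Kcnma1 and the Kcnk genes add none either. The Kcnk genes also include Kcnk1, which passed the filter through WT alone. In WT the order went on with Kcnk5 and Kcnn3, whose ranges overlapped, and then Kcnma1. In KO Kcnn3 stood clear of Kcnma1, and the ranges of Kcnma1 and Kcnk5, and of Kcnk5 and Kcne4, overlapped.

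**Figure D5:**
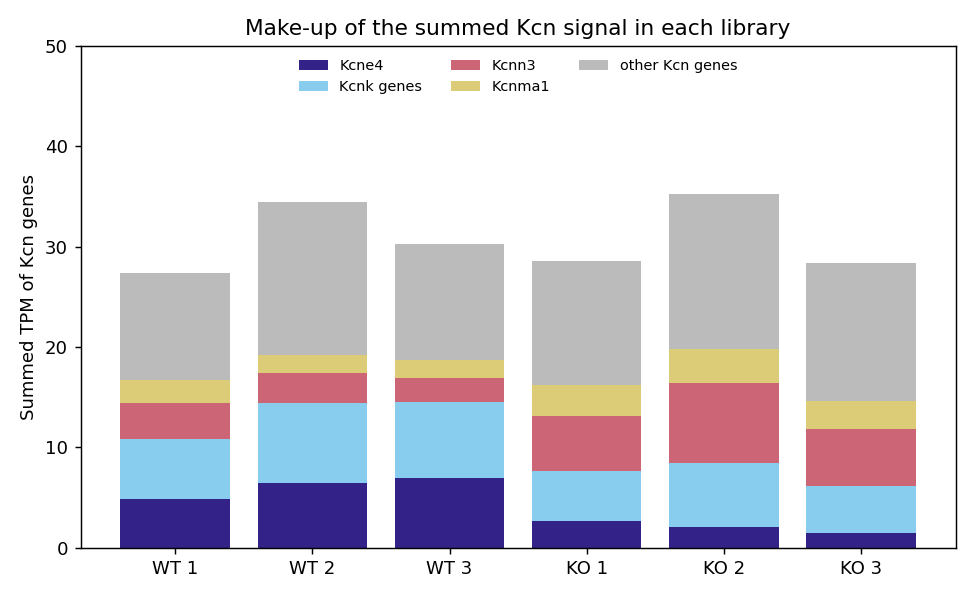
Stacked bars of the summed TPM of the 92 Kcn genes in each library, split into Kcne4, all Kcnk genes, Kcnn3, Kcnma1 and the rest. The bars run from 27.3 to 35.2 TPM with the groups overlapping, while the Kcne4 segment is smaller and the Kcnn3 and Kcnma1 segments larger in every KO library.

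Libraries also differed within a group. Of the 87 Kcn genes above 0, 42 were highest among the WT libraries in WT library 2 and 40 were highest among the KO libraries in KO library 2. The same count over all genes is not given here. The factor used for median-of-ratios scaling, taken over tested genes, was also the highest of its group in WT library 2 (1.07) and KO library 2 (1.14). Kcne4 was instead highest in WT library 3 and in KO library 1. Its coefficient of variation was 18.4% in WT and 30.0% in KO, within the range of the other expressed genes in WT (9.83% to 23.3%) and close to Kcnk1 in KO (30.2%).

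Genes that work with potassium channels or move potassium by other means were taken from a list of 47 by textbook role. Of these 25 were tested, and 0 passed the adjusted threshold by limma, with 1 higher and 0 lower at an unadjusted p under 0.05 (7.89% and 2.66% of all genes tested). The median log2 difference was 0.08, against 0.12 for all genes tested. In 3 of the 25 all KO values lay above all WT values, and in 0 below, where 13.5% and 3.07% of all genes tested did so.

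The sodium pump, which loads the cell with potassium, had 8 of 14 genes of the list tested, and in none did the groups separate. Its regulator Fxyd5 lay at 1.84 to 2.41 TPM in WT and 0.74 to 2.46 TPM in KO, and Fxyd6 at 9.82 to 10.9 and 10.6 to 13.99 TPM. Potassium-chloride and sodium-potassium-chloride cotransporters set chloride and cell volume. Slc12a4 (KCC1) lay at 1.84 to 2.09 TPM in WT and 2.35 to 2.74 TPM in KO, and Slc12a2 (NKCC1) at 2.39 to 2.99 and 3.11 to 4.04 TPM, both without overlap.

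Calmodulin binds SK channels as their calcium sensor and also binds Kcne4. Calm3 lay at 5.95 to 7.76 TPM in WT and 7.59 to 13.2 TPM in KO, the gene of the list with an unadjusted p under 0.05 (log2 difference 0.46, limma adjusted p = 0.469). Akap9, which anchors protein kinase A to Kcnq1 channels, lay at 5.22 to 6.44 and 5.80 to 7.39 TPM. Among regulators of transport, the kinase Sgk1 lay at 50.7 to 70.0 and 39.6 to 71.3 TPM, Oxsr1 at 2.05 to 2.58 and 2.41 to 2.98 TPM, and Stk39 at 1.27 to 1.68 and 1.01 to 1.37 TPM.

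The intracellular TRIC channel genes Tmem38a and Tmem38b lay at 1.18 to 1.35 and 1.48 to 2.24 TPM in WT and at 1.25 to 1.49 and 1.86 to 2.39 TPM in KO, and Kcnrg, outside the symbol pattern, at 0.56 to 1.33 and 0.45 to 1.25 TPM. The BK γ subunit genes and the HCN channel genes had 0 expressed of 4 each, with none above 0.25 TPM.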

How the data were processed

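The authors deposited TPM per gene symbol for 6 libraries. Per the submitters' processing notes, kallisto, Trimmomatic 0.33, CASAVA and FastQC were used, with the builds mm10 and GRCm38; no source used here gives annotation or strandedness. The listed TPM cover part of the full scale, so a change in unlisted features would move all values of a library together. The depth is unknown.

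Groups came from the genotype labels; libraries are numbered in accession order, and neither labels nor headers give a batch. The 8971 genes at 1 TPM or above in 3 or more libraries entered a limma 3.58.1 fit (R 4.3.3) of log2(TPM + 1) values (eBayes with a trend, two-sided, Benjamini-Hochberg over all tested, threshold 0.05). The procedure was run on simulated data with changes planted only in genes above a set mean level. That run therefore says nothing of the lower Kcn genes. The members, lists and alternatives were chosen with earlier results of these data known. Named were Kcne4, its possible partners, the other Kcne genes, every expressed Kcn gene, 3 genes on each side of the filter and, of the related genes, those past the threshold and up to 3 per role with the smallest p; a few of these are left out of the text. Coordinates are GENCODE vM21 (GRCm38), matched by symbol for all 92 genes. Upstream sequences are RefSeq's, less any annotated exon. Leukocyte, endothelial and mature fibre markers were also summed: 3.28 to 11.9, 12.3 to 18.8 and 10.0 to 25.0 TPM in WT, and 5.71 to 11.6, 12.4 to 25.1 and 7.04 to 37.9 TPM in KO.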

Additional observations from a re-analysis of the deposited data

How the results depend on the processing

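Across the 18 alternatives, each of the 8 expressed genes kept the sign of its difference wherever it was tested. The changes of filter and of eBayes options leave a gene's difference as it is, so they could not change its sign. Robust eBayes and library weights each called 1 gene (Kcne4) where 0 were called, and rescaling protein-coding genes to a common total called 3 (Kcne4, Kcnk1 and Kcnn3), with a log2 difference of 0.92 for Kcnn3 (limma adjusted p = 0.0327). Kcne4 was singled out for its difference and Kcnk1 passed the filter through WT alone, so their calls are no evidence. Over the alternatives the limma adjusted p ran from 0.0327 to 0.399 for Kcnn3 and from 0.0623 to 0.485 for Kcnma1. Rescaling called 155 of 8029 genes in all, robust eBayes 33, library weights 80, and leaving out KO library 3 0; the cause was not tested. The Kcne4 difference was -1.55 at a pseudocount of 0.1 and -0.65 at a pseudocount of 5, by the scale's construction. A filter of 2 TPM left 4 expressed Kcn genes, 3 of them without overlap, and no filter left 87. Kcne4 is among the 3, and the share of all genes without overlap at that filter is not given here. The count is therefore no support for a difference of the group. The median difference of the expressed genes was 0.28 and 0.058 at pseudocounts of 0.1 and 5, 0.25 with library weights, 0.088 and 0.081 under median-of-ratios and quantile scaling, and 0.0050 with no filter; leaving out each library gave 0.10 to 0.24. No paired analysis was possible because the labels give the groups no shared replicate numbers. TPM keeps no depth, so the precision of levels near or under 1 TPM is unknown.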
